A study of Mus musculus with 14 samples.

Results

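The 10 genes described here are tumour suppressor genes and genes of the G1 phase of the cell cycle, namely Cdkn2a, Cdkn2b, Cdkn1a, Cdkn1b, Trp53, Mdm2, Rb1, Ccnd1, Ccnd2 and Cdk4. A site of histone H3 acetylated at lysine 27 (H3K27ac), which marks promoters and enhancers in use, was assigned to one of these genes when it overlapped the gene body or the 20 kb beyond either end. This gave 123 distinct sites of the 122228 sites in the deposited list. Neither the number of sites nor their width is part of this rule, but the genes were chosen with earlier results of these data known.

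The sites came from chromatin immunoprecipitation followed by sequencing (ChIP-seq) in immortalised mouse embryo fibroblasts (iMEF). The labels gave 8 groups over 14 libraries. H3K27ac was measured in 2 libraries of control cells and in 2 of each dTAG treatment (30 min, 2 h, 4 h, 8 h or 16 h), and control cells and cells of the 16 h treatment each had 1 input library. The cells of all groups, controls included, carried floxed Ash2l alleles with exon 4 deleted through an inducible Cre-ER recombinase, and a lentiviral transgene for human ASH2L fused to an FKBP tag. dTAG-13 tethers the tag to Cereblon, a subunit of a ubiquitin ligase, and ASH2L is then degraded. The study worked with cell lines each grown from 1 cell, and gave 1 of these, NG3, for its ChIP-seq of histone marks. All groups thus stood for 1 clone. How the fibroblasts were immortalised was not given in the sources used here.

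The list held positions only, joined over all samples, with no read count, score or sample name. A site therefore showed that a peak was called there in at least 1 sample. It could not show in which group, at which height or with which spread between replicates. The study planned for a minimum number of raw reads per ChIP sample, but the depth reached in each was unknown. All values below are counts and positions without replicates, and no test was carried out. Of 8 fibroblast marker genes, 7 had a site within 1 kb of a transcription start site (TSS), all except Col1a1, whose 5′ end lay inside a site. Of 10 markers of other cell types, 3 (Cdh5, Krt8 and Tubb3) had such a site, compared with 54.7% of coding genes. The ranges of site counts in the windows overlapped, with 3 to 57 sites for the fibroblast markers (median 14.5) and 0 to 16 for the others (median 4). Krt8 had 16 sites and Krt18 12, whereas Epcam and Myod1 had none.

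Passage from G1 into S phase is held back by the retinoblastoma protein Rb1, which keeps E2F transcription factors silent until cyclin D bound to Cdk4 or Cdk6 phosphorylates it. The Ink4 inhibitors encoded by Cdkn2a and Cdkn2b block Cdk4 and Cdk6, whereas the Cip/Kip inhibitors encoded by Cdkn1a and Cdkn1b act on cyclin-CDK complexes more broadly. A second protein of Cdkn2a, Arf, binds Mdm2, the ubiquitin ligase that turns over p53, and p53 in turn activates both Cdkn1a and Mdm2. Loss of either Cdkn2a or Trp53 is a common route by which mouse fibroblasts escape senescence in culture, so the first question addressed here was whether the Cdkn2a and Cdkn2b region carried sites at all.

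All 10 genes had sites. Cdkn2a had the highest number with 39, followed by Cdkn2b with 27, Ccnd2 with 17, Cdkn1b with 15 and Mdm2 with 13. Rb1 and Ccnd1 had 10 each, Cdkn1a had 9, Cdk4 had 7 and Trp53 had 3. This order depended on the window. With the gene body alone, Cdkn2a had 18 sites and Ccnd2 14, while Cdkn2b had 3, and with 50 kb on each side Cdkn2b had 47 and Cdkn2a 43. With sites less than 1 kb apart joined, Cdkn2a had 8 and Cdkn2b 2, the same number as Trp53. The windows of Cdkn2a and Cdkn2b overlap, and all 27 sites of Cdkn2b were also among those of Cdkn2a, so these windows together held 39 distinct sites, or 31.7% of the 123. The median over the 10 genes was 11.5 sites, compared with a median of 4 over 21755 coding genes, of which 75.0% had any site in a window of the same kind. In 9 of the 10 genes the count lay above this coding median, Trp53 being the exception.

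**Figure D1:**
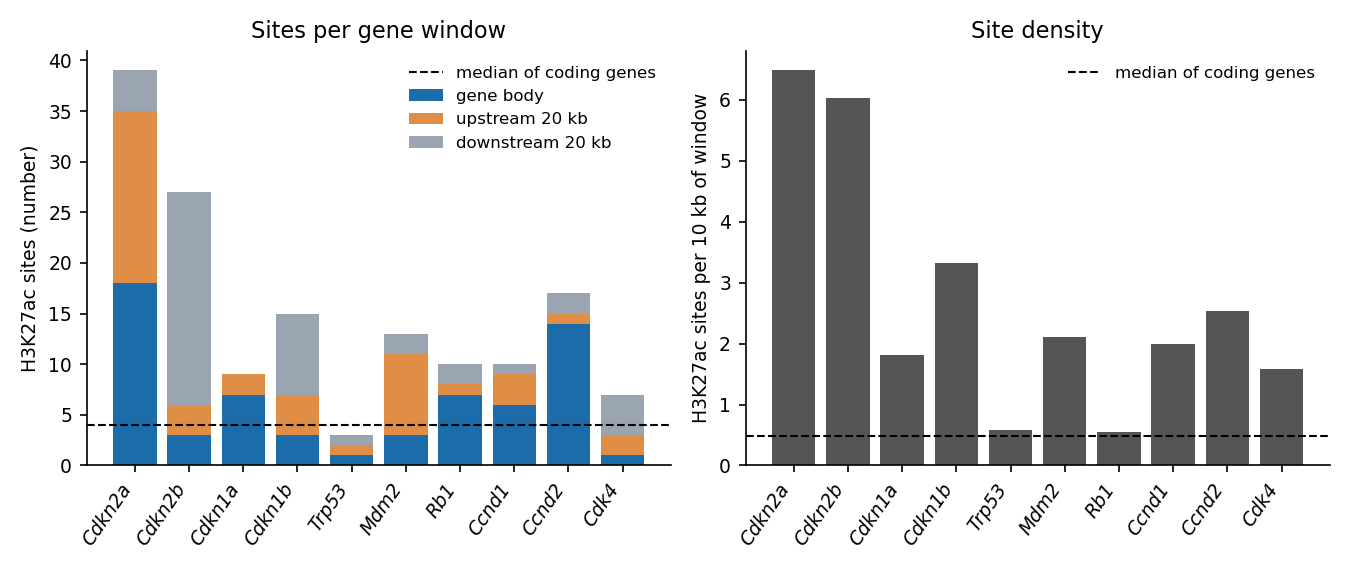
Left, number of H3K27ac sites in the window of each gene, split into gene body, upstream 20 kb and downstream 20 kb; right, the same sites per 10 kb of window, with dashed lines at the median over coding genes. Cdkn2a (39 sites) and Cdkn2b (27 sites) stand above the other 8 genes in both panels, and Trp53 (3 sites) is the one gene below the median number of 4.

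Because long genes collect more sites, the counts were also divided by the length of the window. Per 10 kb, Cdkn2a had 6.48 sites and Cdkn2b 6.03, next to a median of 0.488 over coding genes. Among all coding genes 13, or 0.0598%, reached the density of Cdkn2a, Cdkn2a itself included. Cdkn1b followed with 3.32 sites per 10 kb, Ccnd2 with 2.54, Mdm2 with 2.1, Ccnd1 with 2 and Cdkn1a with 1.81. Cdk4 with 1.58 came next, and Trp53 and Rb1 were lowest with 0.582 and 0.549, close to the coding median. By base pairs, sites covered 38.3% of the Cdkn2a window and 40.1% of the Cdkn2b window, but 8.44% of the Trp53 window and 3.64% of the Rb1 window, the longest of the set.

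At the promoters, all 10 genes had a site centred within 1 kb of an annotated TSS, as did 54.7% of coding genes. The outermost 5′ end lay inside a site in 8 of the 10 genes, compared with 36.5% of coding genes. In the other two, Cdkn2b and Cdk4, it fell into a gap of less than 500 bp between a pair of sites, an arrangement seen in 7.84% of coding genes. When sites less than 1 kb apart were joined into stretches, the 5′ ends of all 10 genes lay in a stretch, as did 44.6% of coding 5′ ends. A CpG island (CGI), a stretch of DNA dense in CpG dinucleotides that marks many promoters, was found within 1 kb of a TSS in 9 of the 10 genes and in 58.4% of coding genes. Trp53 had none. Of the coding genes with a CGI, 80.4% had a promoter site.

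**Figure D2:**
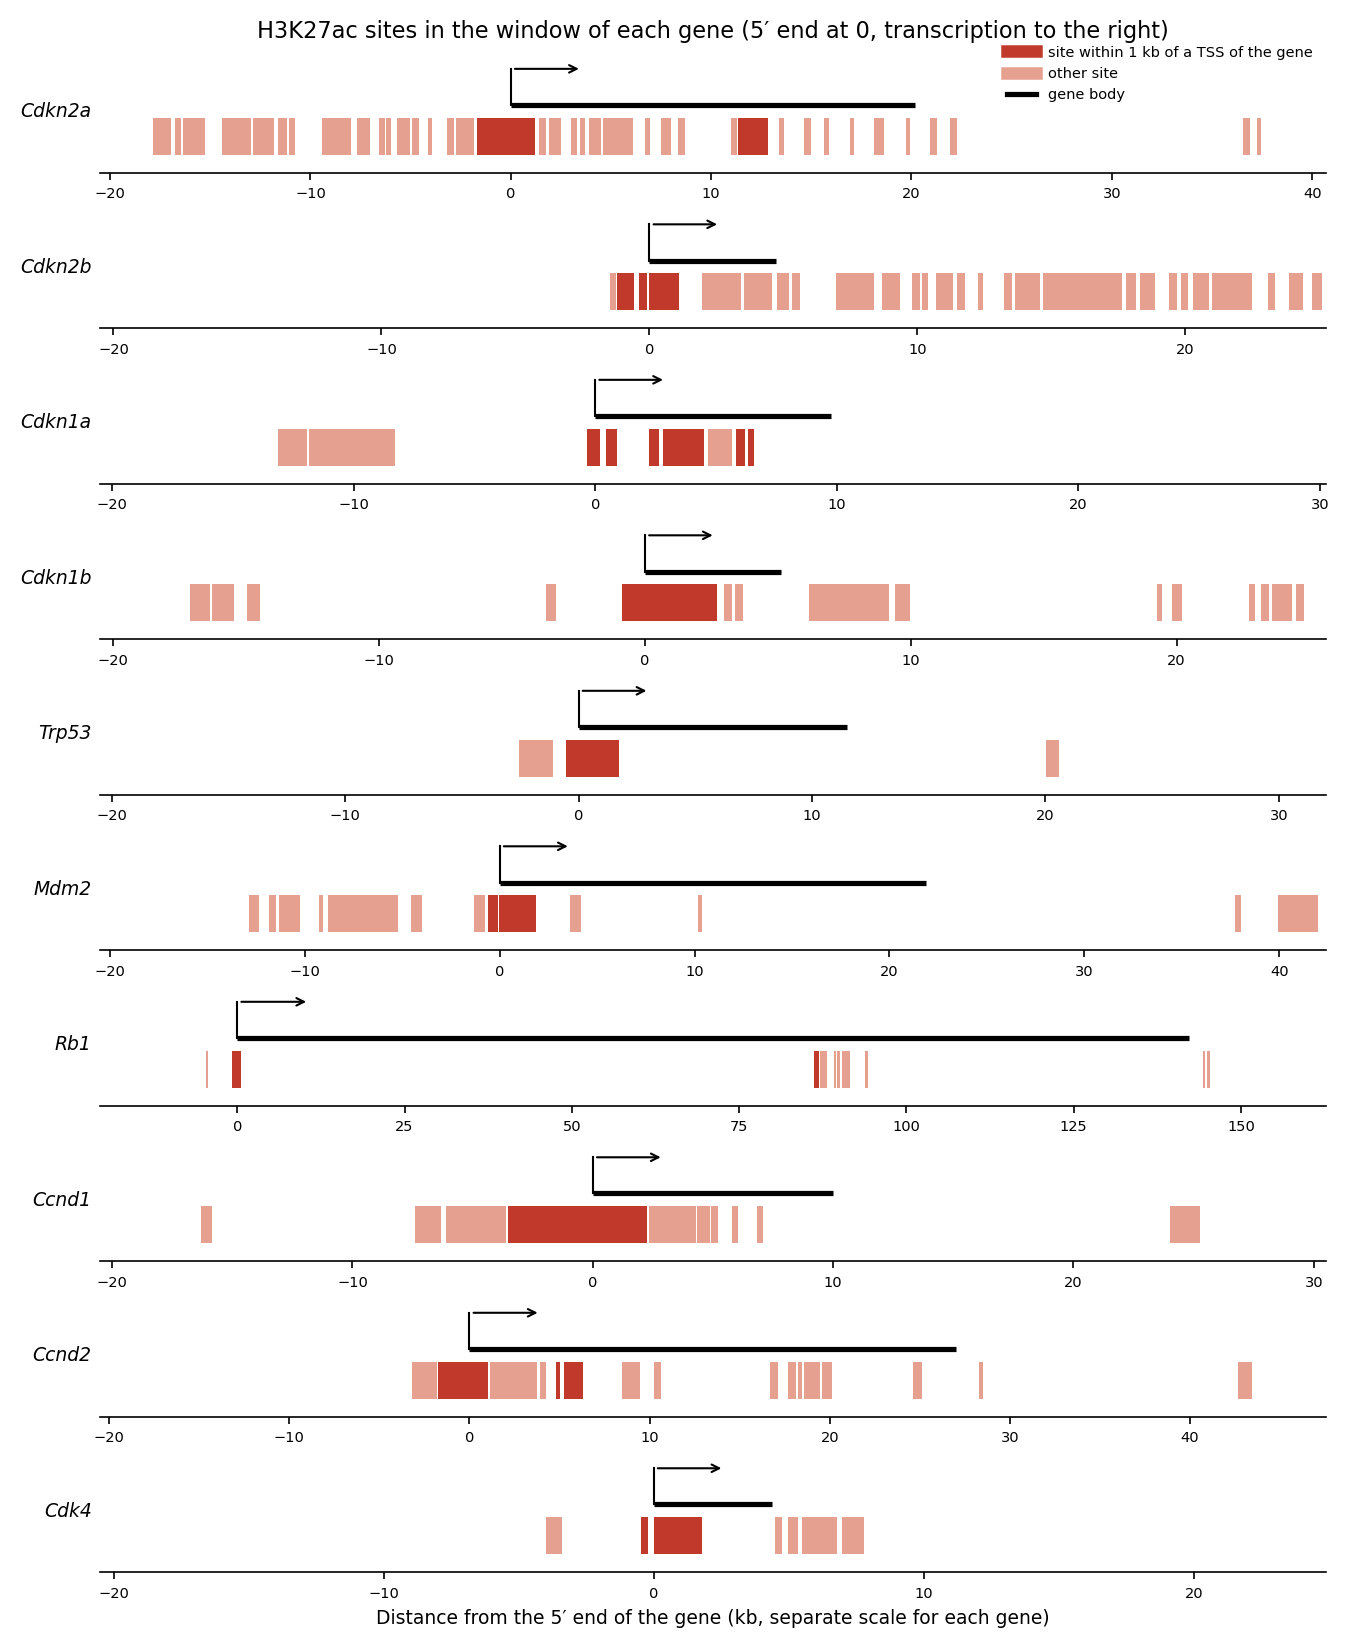
Position of every site in the window of each gene, in kb from the outermost 5′ end with transcription to the right and a separate scale for each gene; black bars are gene bodies, dark red boxes are sites within 1 kb of a TSS of the gene and pale boxes are other sites. Sites cover 38.3% of the Cdkn2a window and 40.1% of the Cdkn2b window. The body of Rb1 holds a promoter site and a group of sites more than 86 kb further in, with none between.

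Cdkn2a (ENSMUSG00000044303.6, chr4:89274471-89294653, minus strand, GRCm38) has 2 promoters with separate first exons, an upstream one for Arf and a downstream one for the Ink4 protein p16. A site of 2940 bp covered the Arf start, from 1702 bp before to 1237 bp after it, and held the whole of a CGI of 1314 bp. The p16 start, 12.5 kb further downstream, lay in a site of 1502 bp and had no CGI within 1 kb. Both alternative promoters of the gene were thus under a site. Their upstream sequences from RefSeq (GRCm38.p6, minus strand) are shown because the pair differed in base composition, with capitals for a GC box (GGGCGG, either strand) and for an E2F motif (TTTGGCGC or TTTCCCGC, either strand). The printed 216 bases for Arf (chr4:89294654-89294869) had a GC content of 78.7% and 35 CpGs, and the 250 bases for p16 (chr4:89282193-89282442) had 60.0% and 7.
Arf promoter of Cdkn2a: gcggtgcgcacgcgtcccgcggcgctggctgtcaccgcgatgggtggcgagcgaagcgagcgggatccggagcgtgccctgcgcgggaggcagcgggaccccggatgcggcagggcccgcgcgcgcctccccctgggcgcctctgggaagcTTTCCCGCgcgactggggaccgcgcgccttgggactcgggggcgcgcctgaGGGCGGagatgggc
p16 promoter of Cdkn2a: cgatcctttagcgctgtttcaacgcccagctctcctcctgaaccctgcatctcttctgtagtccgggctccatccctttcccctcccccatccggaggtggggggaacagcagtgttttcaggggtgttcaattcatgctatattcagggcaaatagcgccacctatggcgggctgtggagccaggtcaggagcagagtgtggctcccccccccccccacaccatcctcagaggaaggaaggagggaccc
All bases of both stretches lay inside sites. The Arf stretch held 1 E2F motif and 1 GC box, and the p16 stretch held neither. Over 32585 RefSeq promoters, each from 250 bases before to 50 after the start, 1.57% had an E2F motif and 35.9% a GC box.

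Of the 39 sites of Cdkn2a, 17 lay upstream of the Arf start, 18 overlapped the gene body, both promoter sites included, and 4 lay downstream. A total of 32 sites were centred more than 1 kb from any TSS, and none of these held one. Most sites were narrow, with a median width of 350 bp and 3 sites at 200 bp, the lowest width in the list. They followed each other at short distances. From 9431 bp before the Arf start to 8712 bp after it, 19 sites with less than 1 kb between neighbours formed a stretch of 18.1 kb. Of 61769 such stretches in the list, 223, or 0.361%, were at least as long. Downstream of Cdkn2a, 2 sites of 350 bp and 391 bp lay at the start of Gm12606, a long intergenic non-coding RNA gene.

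Cdkn2b (ENSMUSG00000073802.5, chr4:89306299-89311039, minus strand) encodes the Ink4 protein p15 and has a single annotated start. That start lay in a gap of 82 bp, with a site of 1113 bp beginning 4 bp downstream of it and a site of 304 bp ending 79 bp upstream. A further 625 bp site lay between 1200 bp and 576 bp upstream. The downstream site held 98.8% of a CGI of 433 bp. The upstream sequence (RefSeq, chr4:89311040-89311282, minus strand, 243 bases) is shown because this gap falls in it, and 165 of its bases lay in the 304 bp site. The capitals mark a cyclic AMP response element (CRE, TGACGTCA), which lay in the 82 bp gap and thus outside any site. Of RefSeq promoters, 1.8% held a CRE.
Cdkn2b promoter: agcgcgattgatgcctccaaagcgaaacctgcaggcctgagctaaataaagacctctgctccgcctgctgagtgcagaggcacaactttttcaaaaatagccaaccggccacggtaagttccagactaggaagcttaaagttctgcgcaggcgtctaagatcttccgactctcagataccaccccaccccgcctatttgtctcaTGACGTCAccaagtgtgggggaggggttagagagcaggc
Of the 27 sites of Cdkn2b, 21 lay downstream, 3 in the gene body and 3 upstream. Its start lay in a stretch of 8 sites and 7.11 kb. The stretch between the genes, 11.64 kb from the Arf start to the end of Cdkn2b, held 12 sites that covered 64.0% of its bases.

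The surroundings were then examined over 500 kb on each side of the pair (chr4:88774471-89811039). This window of 1036569 bp held 350 sites, or 338 per Mb, which covered 18.8% of it. The genome was divided into 2529 windows of the same length, and these had a median of 36 sites with quartiles of 10 and 73. As many sites as around Cdkn2a and Cdkn2b were found in 2 windows (0.0791%), the one on chromosome 2 around Spred1 and Rasgrp1 with 440 sites and the one on chromosome 7 around Tead1, Parva and Mical2 with 371. By base pairs in sites, 4 windows (0.158%) reached the same value. The region thus ranked among those with the most sites. Peaks were called at both genes, so the sequence of the locus was present in at least 1 of the samples. The number of copies of the locus in these cells was not tested.

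**Figure D3:**
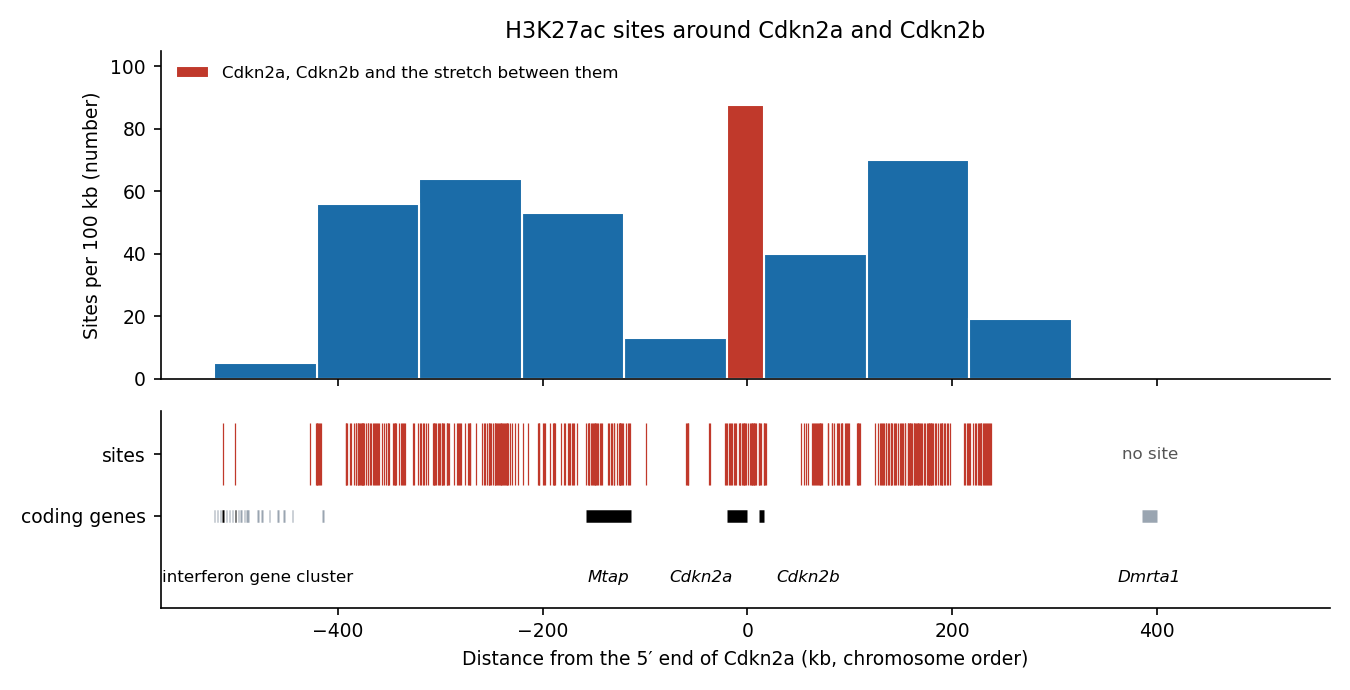
Top, H3K27ac sites per 100 kb in the 500 kb on each side of Cdkn2a and Cdkn2b (blue) and over the genes themselves and the stretch between them (red), against the distance in kb from the 5′ end of Cdkn2a in chromosome order; bottom, every site as a red line and coding genes as boxes, black with and grey without a promoter site. The genes had 87.5 sites per 100 kb, and no site was found in the last 200 kb, where Dmrta1 lies.

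The sites were distributed unevenly within this window. The 36.57 kb from the 3′ end of Cdkn2a to the 5′ end of Cdkn2b held 32 sites, which covered 56.3% of the bases. On the Cdkn2a side, successive bins of 100 kb going away from the genes held 13, 53, 64, 56 and 5 sites. On the Cdkn2b side, the corresponding bins held 40, 70, 19, 0 and 0. The sites on the Cdkn2b side ended 221 kb beyond the Cdkn2b start, and a gap of 671 kb without a site followed, in which Dmrta1, a gene for a DMRT family transcription factor, is located. Of 122151 gaps between neighbouring sites on chromosomes 1 to 19 and X, 405, or 0.332%, were at least as wide. Closer to the genes, a gap of 34.3 kb began 1.48 kb upstream of the Cdkn2b start.

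Of 23 coding genes in the window, 5 had a promoter site, while 54.7% of all coding genes had one. These were Cdkn2a, Cdkn2b, Mtap, Ifnz and Gm13275. Mtap, which encodes an enzyme of methionine salvage and is often lost together with CDKN2A in human tumours, had 34 sites over its gene body. The 19 coding genes from Gm13290 to Ifne, mainly type I interferon genes, had 2 promoter sites between them, and a gap of 73.7 kb without a site held the bodies of 11 of these genes, Ifna1, Ifna4 and Ifna5 among them. The widest site of the window had 4010 bp and lay on the far side of the 34.3 kb gap from Cdkn2b, at chr4:89347743-89351752, outside any coding gene.

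**Figure D4:**
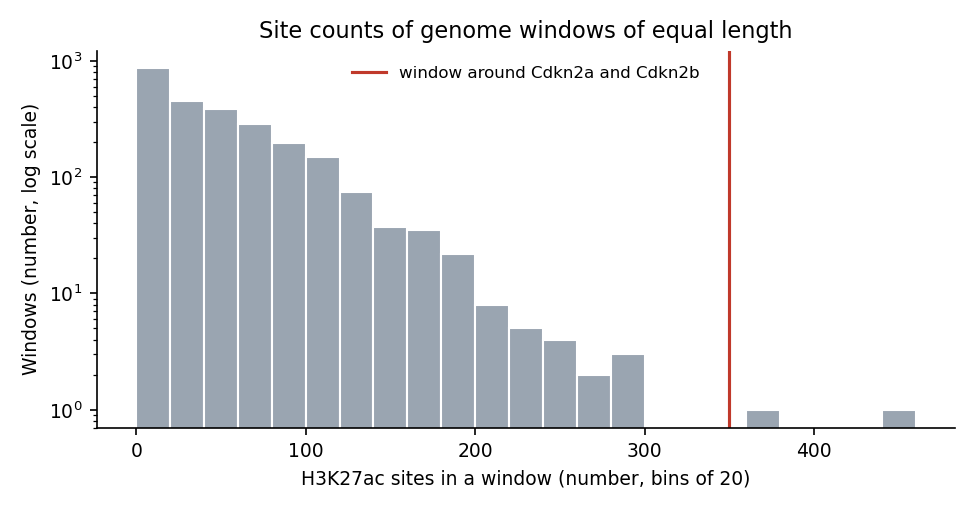
Number of H3K27ac sites in 2529 genome windows of the same length as the window around Cdkn2a and Cdkn2b, in bins of 20 sites, with the number of windows on a log scale. The median window had 36 sites, the red line marks the Cdkn2a and Cdkn2b window with 350, and 2 windows lie to its right.

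Cdkn1a (ENSMUSG00000023067.14, chr17:29090976-29100727, plus strand) encodes p21, the CDK inhibitor through which p53 halts the cell cycle. Of its 9 sites, 7 overlapped the gene body and 2 lay upstream. The outermost start lay in a site of 526 bp, followed by one of 427 bp. The starts of the transcripts Cdkn1a-201 and Cdkn1a-205, at 2.79 kb and 2.81 kb, fell into a gap of 163 bp between a site of 422 bp and one of 1700 bp. These sites together held 88.0% of a CGI of 1361 bp. A second CGI of 235 bp, at 7453 bp, had no site. The start of Cdkn1a-203, at 6.92 kb, lay outside any site, 331 bp from the nearest one. The site at the outermost start contained a p53 response element, a motif of 2 abutting repeats of 10 bases for which up to 2 mismatches outside the core bases were allowed. It is shown in the upstream sequence of that start (RefSeq, chr17:29090729-29090978, plus strand, 250 bases), with the element in capitals at chr17:29090928-29090947, 38 bp before the outermost 5′ end.
Upstream promoter of Cdkn1a: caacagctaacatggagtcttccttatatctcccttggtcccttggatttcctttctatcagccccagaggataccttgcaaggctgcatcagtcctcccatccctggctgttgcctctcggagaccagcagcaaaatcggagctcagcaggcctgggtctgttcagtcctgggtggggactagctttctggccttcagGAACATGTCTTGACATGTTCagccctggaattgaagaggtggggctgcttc
For comparison, the upstream sequence of the start at 2.79 kb (chr17:29093519-29093768, 250 bases, of which 120 lay in a site) held no p53 element but 2 GC boxes, in capitals below.
Downstream promoter of Cdkn1a: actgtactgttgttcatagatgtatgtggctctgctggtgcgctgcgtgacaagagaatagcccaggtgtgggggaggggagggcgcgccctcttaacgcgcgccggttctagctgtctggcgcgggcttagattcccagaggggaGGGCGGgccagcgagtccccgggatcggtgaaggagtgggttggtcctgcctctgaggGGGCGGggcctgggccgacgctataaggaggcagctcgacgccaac
The p53 element lay 23 bp from the middle of its site. Among RefSeq promoters, 0.16% held such an element.

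Upstream of Cdkn1a, a site of 1221 bp and one of 3582 bp lay between 13146 bp and 8272 bp before the 5′ end. The second held the start of Trp53cor1, the gene for lincRNA-p21, which is itself a p53 target and is transcribed away from Cdkn1a, and the first ended 129 bp from that start, inside the gene. The second was the widest site of the Cdkn1a window, wider than the 1700 bp site at the promoter. No site was found between 8271 bp and 324 bp before the 5′ end, or in the 20 kb beyond the 3′ end.

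Cdkn1b (ENSMUSG00000003031.14, chr6:134920401-134925513, plus strand) encodes the CDK inhibitor p27. A site of 3553 bp reached from 846 bp before to 2706 bp after the 5′ end and held all of a CGI of 1339 bp. Of the 15 sites, 3 overlapped the gene body, 4 lay upstream and 8 downstream. A site of 2985 bp lay 6190 bp to 9174 bp downstream of the 5′ end, beyond the 3′ end of the gene, and held the start of Lockd, a long non-coding RNA gene. It was followed by a site of 593 bp inside Lockd, which held a start of Gm44238.

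Trp53 (ENSMUSG00000059552.13, chr11:69580359-69591873, plus strand) encodes p53. It had 3 sites, the lowest number of the set. A site of 2301 bp covered the start, from 556 bp before to 1744 bp after it, and also the start of Wrap53, which is transcribed in the opposite direction. A site of 1491 bp lay 40 bp from a further Wrap53 start. The remaining 18.3 kb up to a site of 556 bp in Atp1b2 held no site, and the annotated internal start of Trp53-204, at 8.34 kb, was 6592 bp from the nearest one. Hence the one site that overlapped the Trp53 gene body was that of the promoter next to Wrap53.

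Mdm2 (ENSMUSG00000020184.15, chr10:117688875-117710758, minus strand) encodes the ubiquitin ligase of p53. Its start lay 16 bp inside a site of 1883 bp, in which 8 of its 9 annotated transcripts began, the last at 736 bp. Of the 13 sites, 8 lay upstream, and 6 of these formed a stretch of 8.87 kb between 12836 bp and 3969 bp before the 5′ end. The widest had 3619 bp, and the nearest TSS, that of Mdm2, lay 5207 bp from its edge. Near its middle it contained a p53 response element, 6988 bp before the 5′ end, and 53 bases from it an AP-1 motif (TGANTCA), the binding site of Fos and Jun factors. The stretch that holds both (RefSeq genome, chr10:117717716-117717835, minus strand, 120 bases) is shown with the AP-1 motif and then the p53 element in capitals.
Upstream Mdm2 site: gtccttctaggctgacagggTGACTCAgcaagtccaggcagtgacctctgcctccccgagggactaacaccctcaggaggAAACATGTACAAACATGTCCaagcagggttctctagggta
A site of 1040 bp further upstream held another p53 element with 2 mismatches, 11225 bp before the 5′ end (chr10:117721973-117721992). It lay 448 bp from the middle of that site. Between 10382 bp and 37732 bp downstream of the 5′ end no site was found.

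Rb1 (ENSMUSG00000022105.6, chr14:73183673-73325822, minus strand) encodes the retinoblastoma protein. Its promoter site of 1415 bp reached from 820 bp before to 594 bp after the 5′ end and held 95.9% of a CGI of 1407 bp. The following 85.5 kb of the gene body had no site. A group of 6 sites then lay between 86144 bp and 94241 bp, in an intron that also holds the gene Lpar6, which encodes a receptor for lysophosphatidic acid. A site of 1111 bp in this group was at the Lpar6 start, and a site of 779 bp lay 108 bp from an internal Rb1 start at 86.0 kb. A second CGI of 233 bp, at 60344 bp, had no site.

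Ccnd1 (ENSMUSG00000070348.5, chr7:144929931-144939925, minus strand) encodes cyclin D1. A single site of 5788 bp reached from 3534 bp before to 2253 bp after the 5′ end, the widest of the 123 sites. With 7 neighbours it formed a stretch of 14.5 kb from 7403 bp upstream to 7101 bp downstream, and 0.604% of stretches in the list were at least as long. Ccnd2 (ENSMUSG00000000184.12, chr6:127125162-127152193, minus strand), which encodes cyclin D2, had a site of 2762 bp over the outermost start and one of 2586 bp next to it. The start of Ccnd2-201, at 1.13 kb, lay in the gap of 135 bp between them. These belonged to a stretch of 7 sites and 9.49 kb. Of the 17 sites of Ccnd2, 14 overlapped the gene body, among them a group of 5 between 16671 bp and 20130 bp.

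Cdk4 (ENSMUSG00000006728.12, chr10:127063534-127067920, plus strand) encodes the kinase that cyclin D activates. Its outermost start lay in a gap of 236 bp, with a site of 258 bp upstream and one of 1783 bp beginning 10 bp downstream. The starts of the other transcripts from 69 bp to 764 bp lay within the downstream site. The site of 595 bp upstream of Cdk4 lay 38 bp from the start of March9, and 3 of the 4 sites downstream were centred within 1 kb of starts of Tspan31 or A730063M14Rik. Hence 6 of the 7 sites of the Cdk4 window were centred within 1 kb of a TSS of Cdk4 or of a neighbour.

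Starts that fell between a close pair of sites recurred in the set. They were found at Cdkn2b, at Cdkn1a-201 and Cdkn1a-205, at Ccnd2-201 and at Cdk4-201, in gaps of 82 bp to 236 bp. Of 47 distinct annotated start positions of the 10 genes, 33 (70.2%) lay inside a site. The shares over all annotated starts of coding genes, inside a site or between a close pair, were not determined. These counts therefore cannot be called high or low. Those further than 5 kb from the 5′ end without a site within 1 kb belonged to transcripts of Trp53, Mdm2, Rb1 and Ccnd2 that are annotated as processed transcripts or retained introns.

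**Figure D5:**
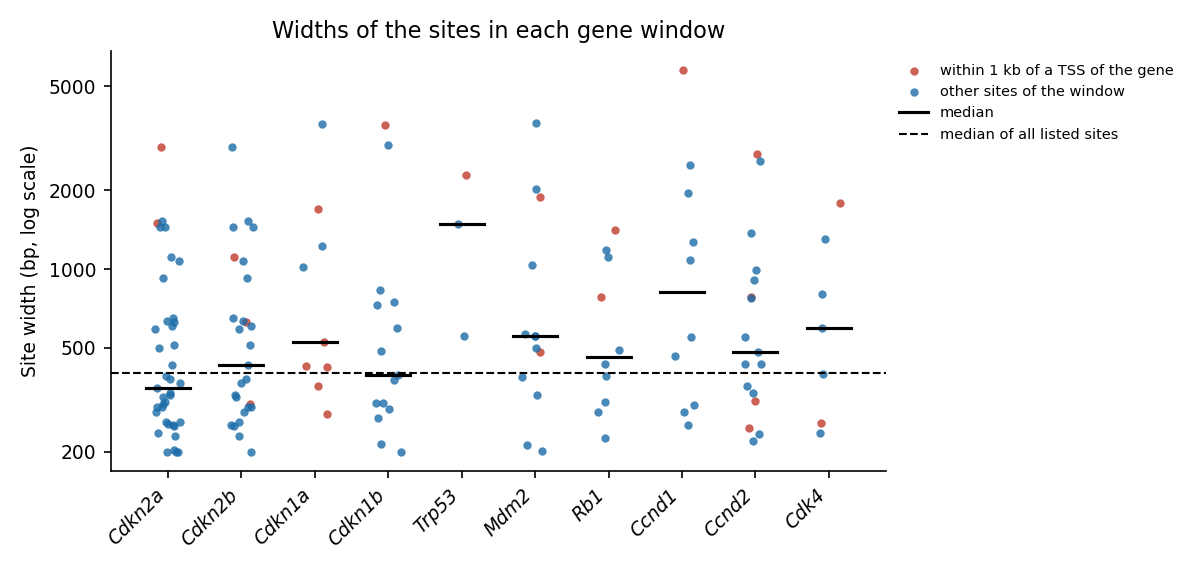
Width of each site in bp on a log scale, by gene, with sites within 1 kb of a TSS of the gene in red, other sites in blue, the median of each gene as a bar and the median of all listed sites, 401 bp, as a dashed line. Sites of the Cdkn2a window have a median of 350 bp, below the dashed line, and the highest point is the 5788 bp site of Ccnd1.

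The widths of the 123 sites had a median of 480 bp and quartiles of 302.5 bp and 1031 bp, while the whole list had a median of 401 bp. The 24 sites centred within 1 kb of a TSS of one of the genes had a median of 779 bp and ranged from 246 bp to 5788 bp. The 85 sites centred more than 1 kb from any TSS (69.1%, compared with 81.3% of the list) had a median of 394 bp and ranged from 200 bp to 3619 bp, so that both ranges overlapped widely. Of these 85 sites, 2 nevertheless held a TSS, the wide sites at Trp53cor1 and Lockd described above. Sites over 2000 bp numbered 11, or 8.94%, compared with 4.32% of the list. The lowest width, 200 bp, was found in 4 sites.

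The 300 bases around the middle of every site were searched for motifs on both strands. Where a site was narrower than this, the search reached beyond its edges, and a match counted for the site could lie just outside it. This was so for the AP-1 match counted for a site of 254 bp in Cdkn2a. A p53 response element was found in 4 of the 123 sites, or 3.25% (95% Wilson interval 1.27% to 8.06%, counting error only), compared with 0.404% of all sites. These were 1 site each of Cdkn1a, Mdm2, Rb1 and the overlapping windows of Cdkn2a and Cdkn2b. The last was a site of 1451 bp in the body of Cdkn2b, 13757 bp upstream of the Arf start, and its element is shown in capitals with 20 bases on each side (RefSeq genome, chr4:89308380-89308439, minus strand).
Element in Cdkn2b: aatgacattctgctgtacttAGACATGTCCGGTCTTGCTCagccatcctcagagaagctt
An AP-1 motif was counted for 9 sites, or 7.32% (3.9% to 13.3%), compared with 12.4% of all sites. A GC box was counted for 12 sites (9.76%, compared with 9.81% of all sites), an E2F motif for 1 site (0.813%, compared with 0.575%) and a CRE for none (Wilson interval up to 3.03%, compared with 0.313%). None of these motifs contains another. A match is a stretch of letters, and binding was not measured. The GC content of the sites had a median of 48.9%, close to the 48.8% of the list.

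Finally, other genes of both pathways were counted. Of 24 further genes of the RB and G1 pathway, 22 had a promoter site. The exceptions were Cdkn1c, which encodes the CDK inhibitor p57, and Skp2, which encodes a subunit of the ubiquitin ligase for p27, and neither had a site in its window. The counts in this list ranged from 0 to 30 with a median of 7.5, and the highest was that of Cdk6, the partner kinase of Cdk4. Cdkn2c and Cdkn2d, the remaining Ink4 genes, had 10 and 5 sites. Of 32 further p53 pathway genes and targets, 28 had a promoter site. Those without were Perp, Sfn, Trp63 and Trp73, 2 of which are the p53 relatives p63 and p73. Trp63 nevertheless had 24 sites in its window, the highest of that list, with 21 over its gene body. The background for both lists is the share of coding genes with a promoter site given above.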

How the data were processed

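H3K27ac ChIP-seq was carried out in the 14 libraries given above. After trimming with Trim Galore, the authors mapped reads to GRCm38 (mm10) with BWA, applied ENCODE filters, combined replicates in Picard, called narrow peaks with MACS2 and joined the peaks of all samples into 1 list. Thresholds, versions and the way of joining were not given in the sources used here. If overlapping peaks were merged, a width can exceed that in any single sample. The authors deposited chromosome, start and end of each site in base pairs, with no other unit. Replicates could thus not be compared, and the depth reached in each sample was unknown.

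Starts were read as counted from 0 and are printed counted from 1. Genes and TSSs were those of GENCODE M21 (GRCm38), an earlier release than that of the authors. Coding genes were taken on chromosomes 1 to 19 and X. A promoter site had its middle within 1 kb of a TSS of any transcript. CGIs were runs scored 17 per CpG and -1 per other base on the repeat-masked sequence, of at least 200 bp, with 50% GC or more and an observed CpG number of 0.6 times the expected one or more. Promoter sequences were those of RefSeq, and the part without annotated UTR or coding sequence is printed. They were matched by symbol for 7 of the 10 genes, and Rb1, Ccnd1 and Ccnd2 were not matched. Genes named were the 10 members, genes with a TSS at their sites, coding genes around Cdkn2a and Cdkn2b, and list members without a promoter site. Some list members with the highest counts, single markers, sites and motif matches were named after their values were seen. The members and lists were chosen with earlier results of these data known. Counting, joining and motif searches were tested on simulated data. Python 3.11.15, pandas 2.3.3, numpy 2.4.6, scipy 1.17.1 and numba 0.67.0 were used. Alternatives covered the window, the width and joining of sites, the TSS set and the measure used for ranking.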

Additional observations from a re-analysis of the deposited data

How the results depend on the processing

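No paired analysis was possible because the deposited list gave no value per sample. All 10 genes kept a promoter site under all 6 alternatives tried, while the share of coding genes with one ranged from 49.6% to 58.1%. The count of 123 sites fell to 63 with the gene body alone and to 43 with sites less than 1 kb apart joined, which removes sites by construction, and stayed within 1.5 times under the other 6 alternatives (95 to 169). The 338 sites per Mb around Cdkn2a and Cdkn2b became 190 with 1000 kb on each side and 84.9 with close sites joined. The share of windows with at least as many sites was then 0.312% and 0.435%, and 0.0204% with 250 kb on each side, compared with 0.0791%. Shifting the windows or leaving out empty ones, both added after seeing the data, gave 0.0794% and 0.0883%. The median rank of the 10 genes, that is the percentage of coding genes with a lower value, was 84.1 by number of sites, 91.7 per 10 kb, 91.3 by base pairs and 89.3 within 50 kb of the 5′ end. In that last measure Trp53 (46.3) and Rb1 (34.1) lay below the middle. Searching whole sites, or allowing 1 mismatch in the p53 element, both added after seeing the data, gave 4.88% and 2.44% of the 123 sites, compared with 0.746% and 0.156% of all sites. Searching whole sites for AP-1 gave 13.0%, compared with 21.1% of all sites. Without the depth reached in each sample, a stretch without sites cannot be told apart from one too weakly covered for a peak.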

Other observations

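Genes that reached the site density of Cdkn2b were 24 in number, both Cdkn2 genes included, and several shared a neighbourhood. Ppbp, Pf4, Cxcl5 and Cxcl3, chemokine genes next to each other on chromosome 5, had 27 to 33 sites each in overlapping windows. Hist1h2ae, Hist1h3e, Hist1h4f, Hist1h2bg and Hist1h1d, histone genes on chromosome 13, had 26 to 30. As for Cdkn2a and Cdkn2b, such neighbours count many of the same sites.

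Repeats made up a mean of 26.7% of the bases of the 85 sites centred more than 1 kb from any TSS in the windows of the 10 genes, compared with 19.9% over all such sites of the list. With sites near a TSS included, the mean was 28.7% in the 39 sites of Cdkn2a and Cdkn2b. It was 20.1% in the sites of the other 8 genes and 18.5% over all sites. How repeats bear on the calling of sites at this locus was not tested.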
